A study of Rattus norvegicus with 6 samples.

Results

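The cytosolic ribosomal protein genes are described here in rat nucleus pulposus cells (NPCs), the resident cells of the gel-like centre of the intervertebral disc. They were the rows of the count table whose symbol began with Rpl or Rps and was followed by a digit, or by the p of the stalk proteins or the a of Rpsa, after dropping the ribosomal S6 kinases (Rps6k) and symbols with a hyphen. This rule gave 82 genes out of 20264 rows, 45 named for the large subunit and 37 for the small one. Of these, 63 were ribosomal proteins proper, 17 were paralogs or genes named as similar to one, and 2 carried a ribosomal name without being a ribosome subunit (Rps19bp1 and Rpl7l1).

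The NPCs came from the tail discs of male Sprague-Dawley rats and were cultured in medium with 15% serum. One group of 3 libraries received tert-butyl hydroperoxide (TBHP), an organic peroxide used to impose oxidative stress, and the other group of 3 received TBHP together with recombinant fibroblast growth factor 21 (FGF21), a secreted hormone-like factor. The comparison asks what FGF21 does to gene expression in NPCs under oxidative stress. TBHP was present in all 6 libraries, and cells without it were not analysed here. The treatment field of the labels reads FGF21, FGF22 and FGF23 for replicates 1, 2 and 3 of the second group, whereas the titles and the design text give FGF21 for all 3, and the titles were followed. The design text calls the replicates biological, but the labels do not say which animals or cultures they came from. Dose and duration of FGF21 for the sequenced cells are not given in the sources used here.

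A cytosolic ribosome joins ribosomal RNA with a fixed set of proteins in a small subunit, which reads the mRNA, and a large subunit, which forms the peptide bonds. Most of the proteins are needed in equal copy number, and ribosomal protein genes are among the most actively transcribed of a growing cell. Their mRNAs begin with a 5′ terminal oligopyrimidine (TOP) tract, a C at the first base followed by a run of C and T, through which mTOR signalling and LARP1 control their translation and storage. Ribosomal proteins that are left unassembled, Rpl5 and Rpl11 among them, bind the ubiquitin ligase MDM2.

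Expression is given as CPM, counts scaled to library size. The libraries held 18277732 to 22426190 counts in the genes of the table. Over 11426 genes tested, TBHP+FGF21 replicate 2 resembled the TBHP libraries more than its own group, with Spearman correlations of 0.996 with each of the 3 TBHP libraries against 0.992 and 0.989 with TBHP+FGF21 replicates 1 and 3. TBHP replicate 3 correlated at 0.994 with TBHP+FGF21 replicate 1 and at 0.993 with both other TBHP libraries. Whether the labels of TBHP replicate 3 and TBHP+FGF21 replicate 2 were exchanged was not tested, and every direction given here rests on the labels. Counts of genes are given with and without these libraries. As for cell identity, the notochordal marker Tbxt and Shh were at 0 in all libraries and Krt18 had 5 counts in total. The matrix gene Acan averaged 2709 CPM in the TBHP and 3565 CPM in the TBHP+FGF21 libraries. The fibroblast collagen gene Col1a1 averaged 39942 and 34931 CPM in turn. By contrast, the collagen genes Col2a1, a nucleus pulposus marker, and Col1a2, an annulus and fibroblast marker, had 68 and 72 counts in total. Haemoglobin Hbb, the macrophage gene Adgre1 and the endothelial genes Cdh5 and Kdr were at 0. Other macrophage and endothelial markers were counted. Cd14 averaged 32.3 CPM in the TBHP and 28.7 CPM in the TBHP+FGF21 libraries. Cd68, Vwf and Tek had 212, 58 and 38 counts in total. Sums were taken over all markers with a row in the count table, whether or not they passed the filter. The nucleus pulposus list (12 of 15 genes, 8 tested) came to 2771 to 3218 CPM under TBHP and 3142 to 4820.3 CPM with FGF21. The annulus and fibroblast list (10 genes, 9 tested) came to 43469.7 to 48292 CPM under TBHP and 33233 to 45618 CPM with FGF21. The macrophage list (9 genes, 2 tested) came to 32.3 to 38.7 CPM under TBHP and 27.2 to 33.4 CPM with FGF21. The part of these lists in the results was not tested. The first sum is mostly Acan, the second mostly Col1a1 and the third mostly Cd14. Over the tested markers of the first and second lists, 4 of 8 and 6 of 9 log2 fold changes were below 0, with medians of 0.00 and -0.10. Krt8 and Cd24 stood at -0.43 ± 0.20 and -0.55 ± 0.36 (SE) against 0.40 ± 0.14 for Acan. Pdgfra stood at 0.39 ± 0.15 (SE) against -0.19 ± 0.14 for Col1a1. In edgeR's quasi-likelihood test, 3 nucleus pulposus markers (Pax1, Acan and Sox9) were higher at an unadjusted p under 0.05 and 0 lower. Of the annulus and fibroblast markers, 2 were lower (Postn and Scx) and 1 higher (Pdgfra). Among all genes tested, 4.63% were higher and 4.29% lower at that p. No endothelial or erythroid marker passed the filter.

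Ribosomal protein genes took a smaller part of the counts in the TBHP+FGF21 group on average, but the groups overlapped. They held 3.37%, 3.41% and 2.52% of all counts in TBHP replicates 1, 2 and 3, and 2.38%, 2.98% and 2.54% in TBHP+FGF21 replicates 1, 2 and 3. TBHP replicates 1 and 2 were the highest and TBHP+FGF21 replicate 2 came next, while TBHP replicate 3 lay between the lower pair of the TBHP+FGF21 group. The means were 3.10% ± 0.505 (SD, n = 3) and 2.63% ± 0.308 (SD, n = 3), a difference of -0.466 percentage points that was smaller than the SD of the TBHP group. It was -0.638 points without TBHP+FGF21 replicate 2 and -0.758 points without TBHP replicate 3. The large subunit genes went from 1.71% ± 0.245 to 1.48% ± 0.157 and the small subunit genes from 1.39% ± 0.260 to 1.15% ± 0.152 (SD, n = 3). Counting error was far below these differences, the 95% Wilson interval of TBHP replicate 1 being 3.36% to 3.38%, and it covers sampling of reads only. In bulk samples, fewer cells of a kind and less mRNA per cell cannot be told apart. Some other read classes had nearly the same order of libraries. Reads assigned to more than 1 gene made up 2.04%, 2.09% and 1.83% of the TBHP and 1.72%, 2.01% and 1.82% of the TBHP+FGF21 libraries, and unmapped reads 1.34%, 1.40% and 1.27% against 1.24%, 1.38% and 1.28%, and their part in the result was not tested. Reads outside any gene, at 10.1%, 10.4% and 9.44% against 10.2%, 9.30% and 9.13%, had another order, with TBHP+FGF21 replicate 1 among the highest.

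**Figure D1:**
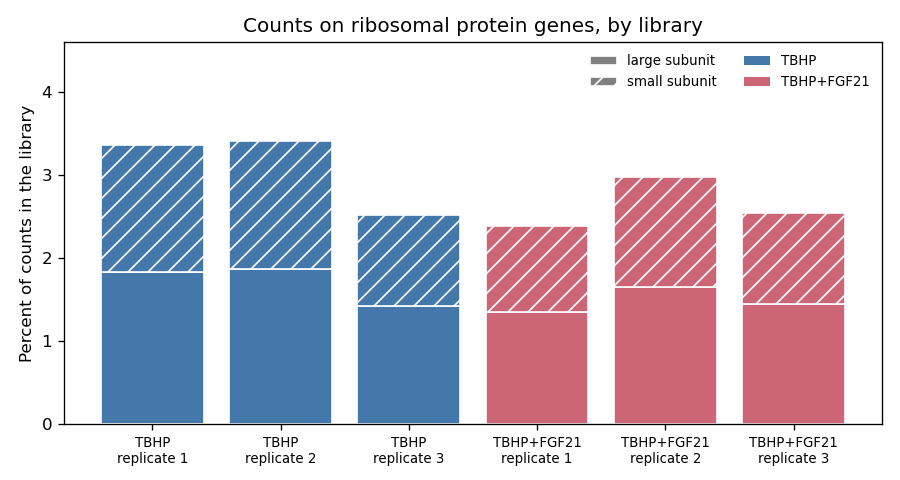
Percent of each library's counts that fell on the 82 ribosomal protein genes (y axis), by library (x axis), with the large subunit as plain and the small subunit as hatched parts of each bar, TBHP in blue and TBHP+FGF21 in red. TBHP replicate 3 at 2.52% sits with TBHP+FGF21 replicates 1 and 3 at 2.38% and 2.54%, and TBHP+FGF21 replicate 2 at 2.98% sits between them and the remaining TBHP bars.

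Of the 82 genes, 65 passed the filter on low counts and were tested, 35 of the large and 30 of the small subunit. In edgeR's quasi-likelihood test no ribosomal protein gene had a Benjamini-Hochberg adjusted p under 0.05 with all 6 libraries, against a background of 0.00875% (1 gene) among the 11426 genes tested, and adjusted p ran from 0.553 to 0.938. DESeq2 and limma-voom gave 0 as well. At an unadjusted p under 0.05, edgeR placed 15 genes lower in TBHP+FGF21 (background 4.29%) and 0 higher (background 4.63%), 6 of them of the large and 9 of the small subunit. The 15 were Rpl14, Rpl19, Rpl22l1, Rpl24, Rpl34 and Rpl36al1, and Rps3, Rps12, Rps20, Rps21, Rps23, Rps24, Rps27a, Rps27l and Rps28. DESeq2 placed 19 (background 3.66%) and limma-voom 11 lower (background 4.57%). With DESeq2's size factors, no scaling factor, scaling factors computed without the ribosomal protein genes, a filter at 1 CPM, the unstranded counts per library or those of 1 strand, 15, 13, 13, 12, 12 and 16 genes were lower (backgrounds 4.17%, 3.39%, 3.89%, 3.84%, 4.22% and 4.44%), and without a filter on low counts 37 of 72 (background 4.5%). The direction was nearly uniform, since 64 of 65 log2 fold changes were below 0 (background 51.1%). Their median was -0.34, with quartiles of -0.44 and -0.20, and the median over all genes tested was -0.01. The median was -0.32 for the large and -0.34 for the small subunit.

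The common direction came with a common profile over the libraries rather than a separation of the groups. In 58 of 65 genes (89.2%) the 3 highest libraries were TBHP replicates 1 and 2 and TBHP+FGF21 replicate 2, in whatever order, against 15.6% of all genes tested. TBHP replicate 1 was the highest library for 33 genes and TBHP replicate 2 for the other 32. The lowest was TBHP+FGF21 replicate 1 for 37 genes, TBHP+FGF21 replicate 3 for 23 and TBHP replicate 3 for 5. The groups did not overlap for 1 gene, Rpl4 (background 5% of all genes in the lower and 4.9% in the higher direction). Among the 61 genes with at least 1000 counts in all, the highest library stood 1.18 to 2.84 times above the lowest. Libraries shared by so many genes make their log2 fold changes dependent, so the count of 64 is not 64 separate observations.

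**Figure D2:**
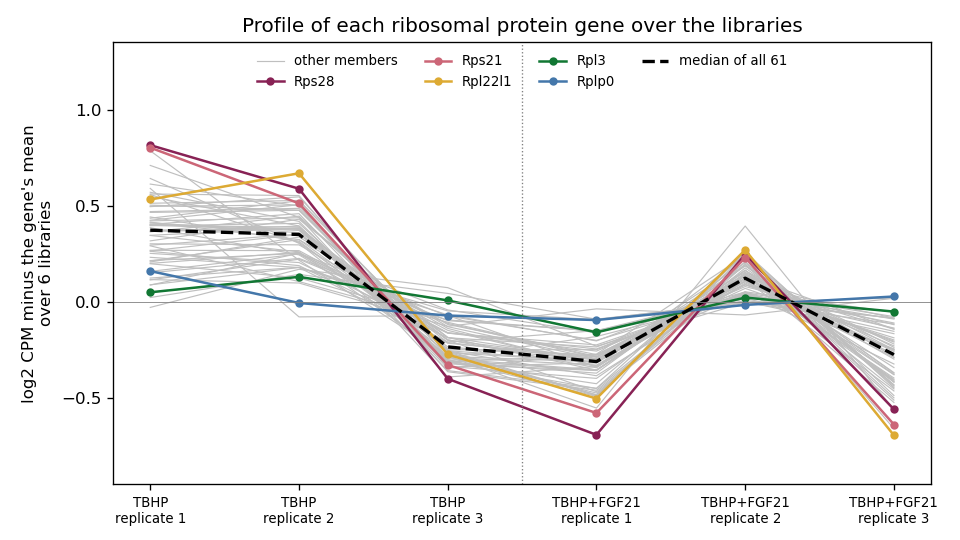
Log2 CPM of each of 61 ribosomal protein genes with at least 1000 counts minus its own mean over the 6 libraries (y axis), by library (x axis), with each gene as a thin line, 5 named genes in colour and the median dashed. The lines rise and fall together in TBHP replicates 1 and 2 and TBHP+FGF21 replicate 2, steeply for Rps28, Rps21 and Rpl22l1, while Rpl3 and Rplp0 stay near 0.

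Which libraries entered the fit decided how many genes were called. Without TBHP+FGF21 replicate 2, 26 ribosomal protein genes fell at an adjusted p under 0.05 (background 3.72% of genes in that direction), 13 of each subunit, and none rose. The median log2 fold change was then -0.48, and 48 genes were lower at an unadjusted p under 0.05 (background 12%). Leaving out TBHP replicate 3 gave 53 lower genes at an unadjusted p under 0.05 (background 8.26%), 0 at an adjusted p under 0.05, a median of -0.52 and all 65 log2 fold changes below 0. Rps28, Rps21 and Rpl22l1 were then at -0.97, -0.93 and -0.84, each with an adjusted p of 0.241, the lowest of any ribosomal protein gene in that fit, so the adjusted calls given below hold only for the fit without TBHP+FGF21 replicate 2. Leaving out TBHP replicate 1, TBHP replicate 2, TBHP+FGF21 replicate 1 or TBHP+FGF21 replicate 3 gave 0 genes at an unadjusted p under 0.05 (backgrounds 1.57%, 1.07%, 1.34% and 0.955%). The fits that leave out 1 library of a group rest on the assumption that the remaining pair varies like the other group. TBHP+FGF21 replicate 2 drew attention because its values resembled the other group. Adjusted p-values without it therefore describe that fit and are no separate test of FGF21. Over all genes, 867 had an adjusted p under 0.05 in that fit, against 1 with all 6 libraries.

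**Figure D3:**
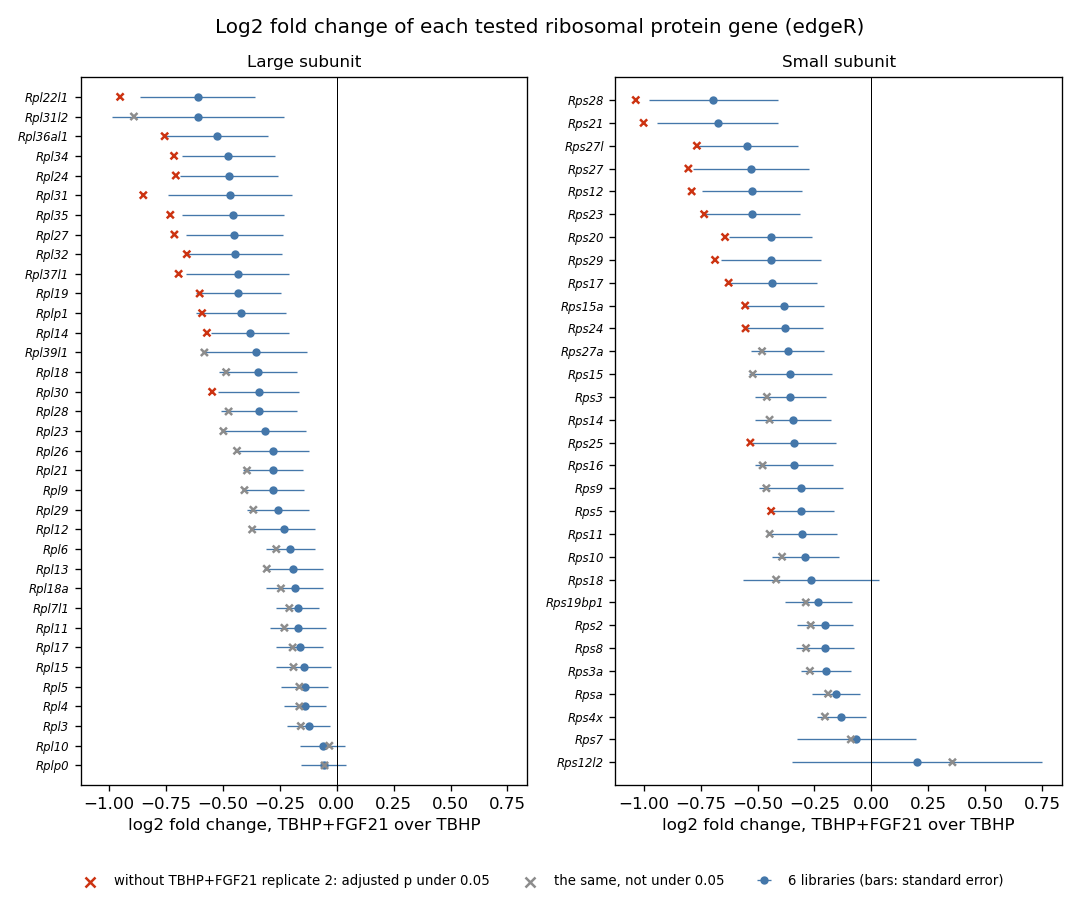
Log2 fold change of TBHP+FGF21 over TBHP (x axis) for the 65 tested genes (y axis), large subunit on the left and small subunit on the right, as blue points with standard errors for all 6 libraries and as crosses for the fit without TBHP+FGF21 replicate 2, red where its adjusted p was under 0.05. The points run from -0.69 for Rps28 to 0.20 for the sparsely counted Rps12l2, and the 26 red crosses lie at -0.44 or below.

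The bases around the annotated transcription start are shown for 10 genes, the 5 with the lowest and the 5 with the highest log2 fold changes among genes with at least 1000 counts and a promoter entry, because the TOP tract begins at that start. Each window holds 15 bases before and 15 bases from the start on, 5′ to 3′ on the gene's own strand in the GRCr8 build of RefSeq, and capitals mark runs of 5 or more pyrimidines.
Rps28, chr7:15311319-15311348, minus strand: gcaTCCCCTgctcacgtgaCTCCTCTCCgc
Rps21, chr3:187724023-187724052, plus strand: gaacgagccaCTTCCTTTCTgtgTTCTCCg
Rpl22l1, chr2:113683181-113683210, plus strand: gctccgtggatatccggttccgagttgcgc
Rps27l, chr8:76443643-76443672, plus strand: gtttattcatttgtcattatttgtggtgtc
Rpl36al1, chr6:93392244-93392273, minus strand: tccgaCTTCCgctccatccgTCCCTTTCCT
Rpl4, chr8:73566462-73566491, plus strand: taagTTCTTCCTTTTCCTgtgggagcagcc
Rps4x, chrX:71342907-71342936, minus strand: tccagcgcgcgcagCCTCCgaccctaattt
Rpl3, chr7:113507976-113508005, minus strand: ccagcgcctgctcgaTCTCTatcggcggcg
Rpl10, chrX:157205835-157205864, plus strand: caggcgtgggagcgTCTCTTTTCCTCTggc
Rplp0, chr12:46718376-46718405, minus strand: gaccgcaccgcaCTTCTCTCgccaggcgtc

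Pyrimidine runs marked 8 of the 10 windows, and Rpl22l1 and Rps27l, paralogs rather than core subunits, had none. A C exactly at the annotated start followed by 4 pyrimidines was found for Rpl10 and Rplp0, the genes with log2 fold changes nearest to 0 among the 10. Over all members, 19 of 64 promoter entries (29.7%) and 17 of 45 entries of tested ribosomal proteins proper (37.8%) had this start, against 2.63% of 33469 RefSeq promoters. A run of at least 5 pyrimidines anywhere in the 30 bases stood in 75% of the members and 45.6% of all promoters. Annotated starts can lie some bases from the true one, so the first count depends on the annotation. The median log2 fold change was -0.36 for 15 ribosomal proteins with the C start and -0.30 for 28 without it, within overlapping ranges of -0.53 to -0.06 and -0.69 to -0.12. These genes are fewer than the 45 tested entries above, of which 17 had the C start.

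Among the small subunit proteins, the lowest log2 fold change belonged to Rps28, one of the smallest proteins of the subunit. It measured 94.3, 80.6 and 40.6 CPM in TBHP replicates 1 to 3 and 33.2, 63.6 and 36.4 CPM in TBHP+FGF21 replicates 1 to 3, with a log2 fold change of -0.69 ± 0.28 (SE). TBHP replicate 3 lay below TBHP+FGF21 replicate 2, so the groups overlapped, and without the latter the value was -1.04 (adjusted p = 0.00968), against -0.97 (adjusted p = 0.241) without TBHP replicate 3. Rps21, another small protein of this subunit, gave 139, 114 and 63.7 CPM under TBHP and 53.5, 93.8 and 51.4 CPM with FGF21, a log2 fold change of -0.67 ± 0.27 (SE). Its order of libraries was that of Rps28 but for a lowest value in TBHP+FGF21 replicate 3, and it reached -1.001 (adjusted p = 0.00698) without TBHP+FGF21 replicate 2. Rps12 stood at 438, 442 and 256 CPM against 218, 355 and 217 CPM, with -0.52 ± 0.22 (SE) on the log2 scale. Rps23, which lines the decoding centre, stood at 492, 509 and 286 CPM against 251, 383 and 261 CPM, with -0.52 ± 0.21 (SE). In both genes TBHP replicates 1 and 2 exceeded every TBHP+FGF21 library and TBHP replicate 3 did not. Rps20 of the subunit head had 648, 655 and 421 CPM and 349.8, 537 and 382 CPM, a log2 fold change of -0.44 ± 0.18 (SE). Rps24, one of the genes mutated in Diamond-Blackfan anaemia, had 514, 556 and 363 CPM and 335, 455 and 312 CPM, a log2 fold change of -0.38 ± 0.17 (SE). Rps20 and Rps24 again overlapped through the same pair of libraries, and both fell without TBHP+FGF21 replicate 2, to -0.64 (adjusted p = 0.0163) and -0.55 (adjusted p = 0.0253).

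Further small subunit genes lay closer to 0. Rps27a, which is made as a fusion with ubiquitin, had 474, 457 and 299.5 CPM under TBHP and 299.7, 369 and 285 CPM with FGF21, a log2 fold change of -0.37 ± 0.16 (SE). Rps3, at the mRNA entry and also active in DNA repair, had 1024, 962 and 653 CPM and 624, 791 and 648 CPM, a log2 fold change of -0.36 ± 0.16 (SE). Both were among the 15 genes named above but were not called without TBHP+FGF21 replicate 2, with adjusted p of 0.0576 and 0.0655. Rps2, also at the mRNA entry, measured 2431, 2352 and 1824 CPM against 1748, 2099 and 1892 CPM, with -0.20 ± 0.12 (SE). Rpsa, known outside the ribosome as a laminin receptor, measured 2007, 1907 and 1639 CPM against 1577, 1758 and 1649 CPM, with -0.16 ± 0.10 (SE). Rps2, Rpsa and the stalk gene Rplp0 together supplied 21.8% of all member counts, and none of the 3 passed the test in either fit. Rps7, an MDM2 binding protein, was sparsely counted at 1.51, 1.45 and 1.22 CPM and 1.47, 1.39 and 1.13 CPM and gave -0.07 ± 0.26 (SE), with both groups spread over the same range. Rps18 was as sparse, with 210 counts in all and -0.26 ± 0.30 (SE).

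On the large subunit, Rpl34 had 217, 231 and 134 CPM in the TBHP and 115, 184 and 120.3 CPM in the TBHP+FGF21 libraries, a log2 fold change of -0.48 ± 0.21 (SE). Rpl24, at the interface with the small subunit, had 469, 471 and 267 CPM and 257, 380.3 and 233 CPM, with -0.47 ± 0.22 (SE). Rpl19, which also forms a bridge to the small subunit, had 134, 113 and 77.1 CPM and 75.4, 98.8 and 66.2 CPM, with -0.43 ± 0.19 (SE). For these 3 genes TBHP replicates 1 and 2 were again above every TBHP+FGF21 library, and TBHP replicate 3 was below TBHP+FGF21 replicate 2. Rpl14 gave 723, 728 and 491 CPM against 437, 626 and 429.7 CPM and -0.38 ± 0.17 (SE). All 4 fell without TBHP+FGF21 replicate 2, to -0.72 (adjusted p = 0.0142), -0.71 (adjusted p = 0.0210), -0.60 (adjusted p = 0.0297) and -0.57 (adjusted p = 0.0215) in the same order. Rpl31, with 107, 72.3 and 51.1 CPM and 42.4, 81.8 and 42.2 CPM, had a larger spread and was not among the 15, at -0.47 ± 0.27 (SE), yet reached -0.85 (adjusted p = 0.0150) in that fit.

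The proteins of the large subunit's stalk, which recruits the GTPases of elongation, differed among themselves. Rplp0, the base of the stalk, measured 2724, 2428 and 2320.3 CPM under TBHP and 2283, 2411 and 2485 CPM with FGF21, a log2 fold change of -0.06 ± 0.10 (SE). It did not follow the common profile, with TBHP+FGF21 replicate 3 as its second highest library, and it turned to 0.018 without TBHP replicate 1. Rplp1, which binds to that base, measured 788, 833 and 465 CPM and 471, 639 and 446 CPM, a log2 fold change of -0.42 ± 0.20 (SE), and followed the common profile. It fell to -0.59 (adjusted p = 0.0455) without TBHP+FGF21 replicate 2. Rplp2, its partner, was not analysed here.

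Several core proteins of the large subunit varied little. Rpl3, next to the peptidyl transferase centre, had 1131, 1196 and 1099 CPM and 979, 1109.9 and 1055 CPM, a log2 fold change of -0.12 ± 0.09 (SE). Rpl4, which lines the exit tunnel, had 975, 1059.7 and 989.6 CPM under TBHP and 902, 958 and 886 CPM with FGF21, a log2 fold change of -0.14 ± 0.09 (SE). Rpl4 was the gene whose groups did not overlap, its lowest TBHP library exceeding its highest TBHP+FGF21 library by a small step. Rpl10, added late in the assembly of the subunit, had 853, 843 and 721 CPM and 768, 751 and 797 CPM, with -0.06 ± 0.10 (SE). For the MDM2 binding pair that carries 5S rRNA, Rpl5 had 482, 553 and 518 CPM against 419, 491 and 499 CPM, with -0.14 ± 0.10 (SE). Rpl11 had 438, 467 and 351 CPM against 331, 407 and 378 CPM, with -0.17 ± 0.12 (SE). None of these 5 was called without TBHP+FGF21 replicate 2.

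Tested paralogs other than Rps12l2 had the same 3 highest libraries as most core genes. Rpl22l1, the paralog of Rpl22, measured 86.7, 95.4 and 49.6 CPM in TBHP and 42.3, 72.3 and 37.1 CPM in TBHP+FGF21, a log2 fold change of -0.61 ± 0.25 (SE) that became -0.95 (adjusted p = 0.00551) without TBHP+FGF21 replicate 2. Rps27l, the paralog of Rps27, measured 126, 125 and 67.6 CPM and 64.7, 94.2 and 59.3 CPM, with -0.55 ± 0.22 (SE). Its parent Rps27 measured 236, 196 and 109.9 CPM and 114, 170.0 and 91.2 CPM, with -0.53 ± 0.25 (SE), so the pair shared sign, size and the 3 highest libraries. Rpl36al1 had 130.1, 120.2 and 66.1 CPM and 61.9, 95.4 and 62.2 CPM, with -0.53 ± 0.23 (SE), in a row with values that are not whole. Rpl37l1 had 302, 272 and 159 CPM and 149, 242 and 151 CPM, with -0.44 ± 0.23 (SE). Rpl39l1 gave -0.36 ± 0.23 (SE) at 15.4, 16.0 and 9.14 CPM and 9.62, 13.7 and 8.28 CPM. Rpl31l2 (136 counts in all) and Rps12l2 (58 counts) were too sparse to place, at -0.61 ± 0.38 (SE) and 0.20 ± 0.55 (SE). Rps12l2 read 0.726, 0.499 and 0.0938 CPM and 0.569, 0.383 and 0.523 CPM, and its sign, positive with all libraries, came from TBHP replicate 3, without which it was -0.29.

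The 2 genes that are no ribosome subunits also leaned the same way without passing the test. Rps19bp1, which binds Rps19 and is also known as an activator of the deacetylase SIRT1, had 50.9, 48.0 and 32.8 CPM and 35.3, 40.5 and 36.0 CPM, with -0.23 ± 0.15 (SE). Rpl7l1, a nucleolar assembly protein related to Rpl7, had 71.6, 74.4 and 63.6 CPM and 61.6, 65.8 and 58.6 CPM, with -0.17 ± 0.10 (SE).

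The remaining 17 genes did not pass the filter. For 10 of them no count was recorded in any library, among them Rps6, the substrate of the S6 kinases, Rpl10a, Rpl13a and Rpl23a. The other 7 had 1 to 31 counts over all libraries, with 31 for Rpl39, 26 for Rpl27l1, 19 for Rps12l4, 17 for Rps19, 3 for Rpl3l, 2 for Rpl36 and 1 for Rpl22l2. A count of 3, the limit that a count of 0 allows, corresponds to 0.131 to 0.168 CPM in these libraries. Ribosomal proteins are made in every cell, and mammalian genomes carry many processed copies of their genes, to which reads can map equally well. Reads with several such places formed 6.27% to 7.02% of the libraries, and their part in these zeros, and in the low counts of Rps7 and Rps18, was not tested. Rps13, Rps26, Rpl7, Rpl7a, Rpl8, Rpl22, Rpl27a, Rpl35a, Rpl36a, Rpl37, Rpl37a, Rpl38 and Rpl41 were not analysed here. The 34 hyphenated rows left out by the rule came to 36027 counts, or 1.00% of the counts of the members.

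Proteins with higher numbers had lower log2 fold changes. Ribosomal proteins were numbered by their position in gels, so that a higher number generally means a smaller protein, and this grouping was made after the values were seen. Across 27 large subunit proteins proper with at least 1000 counts, the log2 fold change and the number correlated with a Pearson r of -0.78 and a Spearman rho of -0.80, and across 24 small subunit proteins with -0.70 and -0.76. These are correlations across genes of the same 6 libraries, which are not independent replicates. Numbers up to 10 had a median log2 fold change of -0.14 in the large (6 genes) and -0.25 in the small subunit (8 genes). Numbers of 20 and above had -0.39 (12 genes) and -0.44 (9 genes), with the numbers between at -0.19 (9 genes) and -0.36 (7 genes). The spread between libraries followed the same order, the highest library exceeding the lowest by a median factor of 1.27, 1.45 and 1.83 in the large and 1.49, 1.70 and 2.03 in the small subunit. Rpl10 at the top and Rps28 at the bottom mark the ends of this range, while Rps12 lay lower than its neighbours in number. Transcript lengths were not used here, and read counts of short and long transcripts were not compared as levels.

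**Figure D4:**
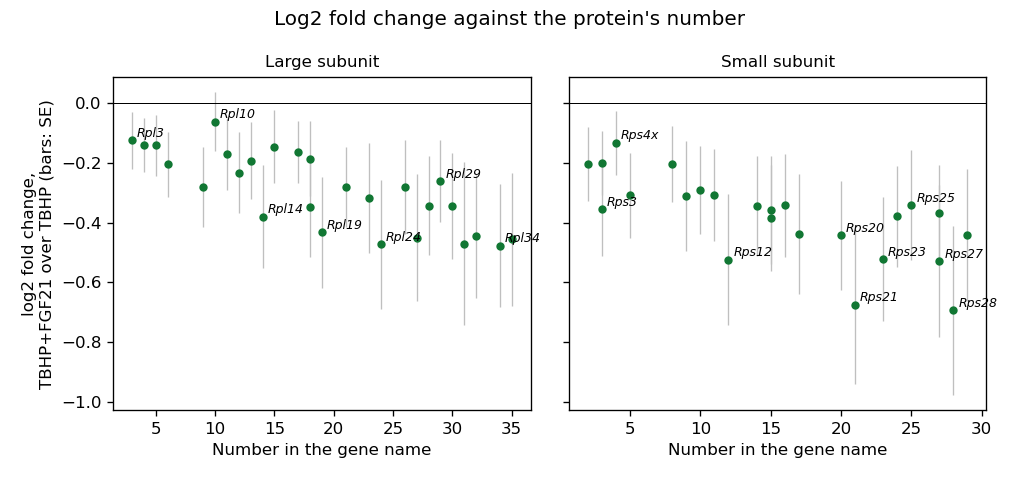
Log2 fold change of TBHP+FGF21 over TBHP with its standard error (y axis) against the number in the gene name (x axis) for 27 large and 24 small subunit proteins proper with at least 1000 counts. Values sink from between -0.28 and -0.06 for large subunit numbers up to 10 to between -0.48 and -0.26 for numbers of 20 and above, and the standard errors widen with the number.

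Ribosomal proteins with names outside the rule differed in their values. Fau, whose product is processed to a small subunit protein, had 316, 305 and 178 CPM under TBHP and 160.3, 242 and 173 CPM with FGF21, a log2 fold change of -0.47 ± 0.20 (SE) in the common profile. Rack1, the scaffold on the small subunit head, had 1214, 1165 and 1051 CPM and 1053, 1122 and 1133 CPM, with -0.05 ± 0.10 (SE).

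The medians of other gene groups of protein synthesis were nearer to 0 than that of the ribosomal proteins, and no gene of any of them had an adjusted p under 0.05 with all 6 libraries. Of 18 tested TOP mRNAs outside the ribosomal protein names, 13 were below 0 (background 51.1%), with a median log2 fold change of -0.12, and 2 were lower at an unadjusted p under 0.05 (background 4.29%), 1 of them the ribosomal protein gene Fau. The same backgrounds hold for the lists that follow, and none of their counts was tested against them. The elongation factors Eef1a1 and Eef2, classic TOP mRNAs, stood at 0.05 ± 0.10 and 0.02 ± 0.10 (SE). Translation factors were below 0 for 27 of 32 with a median of -0.10, 2 of them lower at an unadjusted p under 0.05, with the smallest p for Eif3j at -0.41 ± 0.15 (SE). Mitochondrial ribosomal proteins, which serve the organelle's own ribosome, were below 0 for 61 of 66 with a median of -0.14, 2 of them lower at that p, led by Mrps14 at -0.44 ± 0.18 (SE). Ribosome biogenesis factors were below 0 for 48 of 57 with a median of -0.13 and 5 lower at that p, led by Brix1 at -0.42 ± 0.14 (SE), and Myc, which drives many of them, stood at -0.01 ± 0.12 (SE). Without TBHP+FGF21 replicate 2, the numbers that fell at an adjusted p under 0.05 were 3, 3, 4 and 6 for these lists in turn (background 3.72%).

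Of 29 tested genes of mTOR and S6 kinase signalling, which regulates TOP mRNAs, 10 were below 0 (background 51.1%), the median was 0.04, and 2 were higher at an unadjusted p under 0.05, a share near the background of 4.63%. Mtor itself stood at 0.21 ± 0.09 (SE), the S6 kinase gene Rps6kb1 at -0.12 ± 0.11 (SE), Larp1 at 0.02 ± 0.09 (SE) and Sesn3, an inhibitor of mTOR complex activity, at 0.29 ± 0.13 (SE). Without TBHP+FGF21 replicate 2, 3 of the 29 were higher (Tsc2, Eif4ebp2 and Sesn3) and 1 lower (Eif4ebp1) at an adjusted p under 0.05. Over all genes, 867 of 11559 passed in either direction in that fit. Of the hosts of small nucleolar RNAs, Epb41l4a alone was tested, at 0.19 ± 0.13 (SE). Respiratory chain subunits, a list added after the values were seen, came close to the ribosomal proteins, with 63 of 69 below 0, a median of -0.30 and 15 lower at an unadjusted p under 0.05 (background 4.29%), and 25 of the 69 fell at an adjusted p under 0.05 without TBHP+FGF21 replicate 2 (background 3.72%). Spliceosomal small ribonucleoproteins, added likewise, were below 0 for 10 of 11 with a median of -0.45 and 4 lower at that p, and core proteasome subunits for 14 of 16 with a median of -0.17 and 1 lower (background 4.29% for both).

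**Figure D5:**
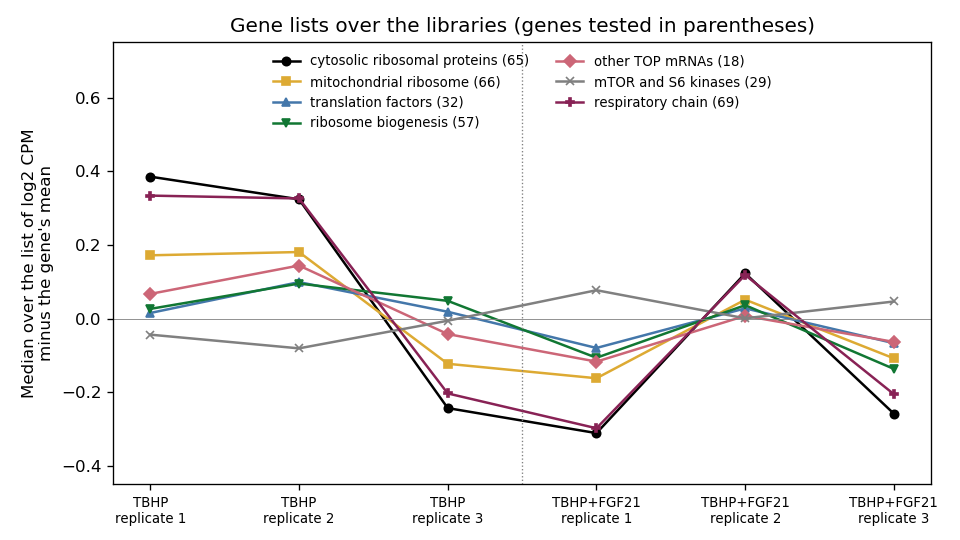
Median over the tested genes of each list of log2 CPM minus the gene's own mean over the 6 libraries (y axis), by library (x axis), 1 line per list. Ribosomal protein genes run from 0.39 in TBHP replicate 1 to -0.31 in TBHP+FGF21 replicate 1 with 0.12 in TBHP+FGF21 replicate 2, respiratory chain genes follow within 0.33 and -0.30, and the mTOR list runs the opposite way between -0.08 and 0.08.

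The genes outside the members whose log2 CPM followed the mean of the ribosomal proteins proper most closely over the 6 libraries were Cox4i1 and Cox5a (Pearson r of 0.999), Snrpd2, Fau and Cstb (0.998). Cox4i1 and Cox5a encode subunits of cytochrome c oxidase, Snrpd2 a core spliceosomal protein and Cstb the protease inhibitor cystatin B. Cox4i1 read 428, 409.9 and 266 CPM in TBHP and 239, 342 and 249 CPM in TBHP+FGF21, the order of libraries seen for the ribosomal proteins. Running most opposite were Paxip1 (-0.997), Ifngr1 (-0.996), Morc4, Rpn2 and Mllt10 (-0.994). Of 11361 genes compared, 737 had an r above 0.9 and 469 an r below -0.9.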

How the data were processed

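Poly(A) mRNA from 1 µg of total RNA was made into libraries with fragments of about 240 bp, with a kit named as directional in the labels. The authors deposited raw counts per Ensembl identifier and strand of every sample, laid out as STAR writes its gene counts, and 1 combined table by gene symbol. The submitters' processing notes name STAR and featureCounts without versions, and genome build and annotation are not given in the sources used here. Because 22 rows of the combined table hold values that are not whole, the deposited table was handled like expected counts and these values were rounded up. Both strand columns nevertheless hold nearly equal reads for the 59 linked members with at least 1000 counts (49.1% to 52.1% in 1 of them), so a gene and an antisense partner cannot be told apart.

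Counts of 20264 rows, with 18277732 to 22426190 per library, were filtered with edgeR's filterByExpr (10 counts, 15 in total), scaled by trimmed mean of M-values (TMM) and tested with the quasi-likelihood test (edgeR 4.0.16, R 4.3.3), TBHP+FGF21 against TBHP. P-values were adjusted by Benjamini and Hochberg over 11426 genes. CPM are TMM-scaled and fold changes are log2. DESeq2 1.42.0 and limma-voom (limma 3.58.1) were alternatives, besides other scalings, filters, count columns, a replicate block and leaving out each library. The fit was tested on simulated data.

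Samples were grouped by title. The members and gene lists were chosen with earlier results of these data known. Named genes were those with an unadjusted p under 0.05, the 5 largest and 5 smallest log2 fold changes, the 5 highest and 3 lowest mean CPM, members with a set role, paralogs and non-subunits, members below the filter, the largest ratios between libraries, and the smallest p of each other list. Rpl31 and Rps18 were added after their values were seen. Symbols were linked to identifiers by identical counts for 66 members. Start sequences are from RefSeq (GRCr8). Some members of the other lists are not reported here.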

Additional observations from a re-analysis of the deposited data

How the results depend on the processing

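The median log2 fold change of the ribosomal protein genes stayed below 0 in every setting run, from -0.22 without TBHP replicate 1 to -0.52 without TBHP replicate 3, and the difference in the share of counts ran from -0.309 to -0.758 percentage points over fits that leave out 1 library. Members with an adjusted p under 0.05 numbered 0 in all settings except without TBHP+FGF21 replicate 2, so that leaving out 1 library gave 0 to 26, and members lower at an unadjusted p under 0.05 numbered 0 to 53. That second count was 15 as reported and 37 without a filter on low counts; the cause was not tested. Over all genes, the number with an adjusted p under 0.05 was 1 as reported, 5 without a filter, 4 by DESeq2, 0 by limma-voom, 0 with either the unstranded or the single-strand counts per library, and 0 to 867 when 1 library was left out.

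Same-numbered libraries of the 2 groups correlated in their deviations from the group means at -0.12, 0.21 and 0.15, and not every library correlated best with its own number. With 3 libraries a group, these values do not decide whether the numbers pair the libraries. With the replicate block, 43 members were lower at an unadjusted p under 0.05 (background 7.53%), 0 had an adjusted p under 0.05, the median was -0.32, and 2 of all genes passed the adjusted threshold.

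Of 192 log2 fold changes of the 32 named genes with 1 library left out, 173 kept sign and call, 16 passed the adjusted threshold in the same direction and 3 changed sign. These were Rplp0, between -0.10 and 0.018 (without TBHP replicate 1), Rps12l2, between -0.29 (without TBHP replicate 3) and 0.72, and Rps7, between -0.15 and 0.047 (without TBHP+FGF21 replicate 3). All 314 values under the other settings kept sign and call. With 3 libraries a group, differences near the spread between replicates cannot be resolved, and depth limits the 4 tested members with 58 to 210 counts.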
